A study of Mus musculus with 18 samples.

Results

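Potassium channel genes were read from expression arrays of 3 brain regions of mice given the neurotoxin MPTP or saline. A gene was taken as one of them if its symbol begins with Kcna, Kcnb, Kcnc, Kcnd, Kcne, Kcnf, Kcng, Kcnh, Kcnip, Kcnj, Kcnk, Kcnm, Kcnn, Kcnq, Kcns, Kcnt or Kcnv and a probe set names that gene alone, and its probe set of highest mean over all arrays stood for it. This gave 83 of the 18194 genes on the array. The symbols also caught 3 noncoding transcripts, Kcnmb4os1, Kcnmb4os2 and Kcnq1ot1, which lie over or beside channel genes and encode no channel. The animals were male C57BL/6J mice, 14 weeks old, which received intraperitoneal MPTP at 30 mg/kg (as free base) or saline once a day for 5 injections and were killed 4 days after the last one. Frontal cortex, striatum and midbrain gave 3 arrays for each treatment, so that 18 arrays fell into 6 groups. Whether arrays that carry the same replicate number came from the same animal is not stated, and MPTP was the only toxin regimen, read at a single time.

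Potassium channels let potassium leave or enter the cell and so set the resting potential, shape the action potential and fix how fast a neuron can fire. Voltage-gated Kv subunits open on depolarisation and assemble as tetramers, often with cytoplasmic beta subunits or KChIPs that alter their inactivation and traffic. Inward rectifiers hold the resting potential, G protein-gated GIRK channels act downstream of inhibitory receptors, tandem pore domain (K2P) channels carry leak current, and BK and SK channels respond to calcium. In striatal spiny neurons inward rectifiers and A-type Kv channels are known to keep the cell silent between inputs, in dopaminergic neurons A-type, GIRK, SK and ATP-sensitive channels govern pacemaking, and in astrocytes inward rectifiers clear potassium from the extracellular space.

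All values below are log2 expression values of a probe set, so that a difference of 1 is a doubling, and values of different genes cannot be ranked against each other because each probe set has its own response. Genes whose mean reached 5.18 in 1 region or more were tested, a value set at the median over probe sets. Of the 83 genes 61 were tested (73.5%, against 64.5% of all genes), among them Kcnmb4os2 and Kcnq1ot1. The lowest of the tested genes reached 5.36 in its highest region and the highest of the untested ones, Kcnn3, reached 5.15. Array medians lay between 5.14 and 5.21, and the correlation between arrays of one group ran from 0.991 to 0.997. The dissections followed their labels: Ppp1r1b, a marker of spiny neurons, averaged 12.20 in saline striatum against 8.15 in cortex and 7.31 in midbrain, Slc6a3, the dopamine transporter, averaged 9.40 in saline midbrain against 3.79 in cortex, and Neurod6 of cortical excitatory neurons averaged 7.95 in cortex against 4.56 in striatum. In midbrain Th averaged 8.84 with saline and 8.02 with MPTP. The library of MPTP striatum numbered 1 stood apart in the 7 tested markers of cortical glutamatergic neurons, whose mean was 5.64 there and 6.67 and 6.90 on the other MPTP arrays of striatum.

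Promoter windows are shown for 4 genes on which the results turn, each with its regional pattern: Kcna5, highest in striatum by the widest margin, Kcnd2, highest in striatum over a raised level elsewhere, Kcng4, highest in midbrain, and Kcnmb4, which stepped down from cortex to midbrain. Each window spans the start of the gene in RefSeq (GRCm38.p6), most of it upstream, and is written along the gene's own strand with every CG dinucleotide in capitals. They lie at chr6:126535506-126535805 (minus strand), chr6:21215096-21215395 (plus), chr8:119635631-119635930 (minus) and chr10:116473474-116473773 (minus).
Kcna5: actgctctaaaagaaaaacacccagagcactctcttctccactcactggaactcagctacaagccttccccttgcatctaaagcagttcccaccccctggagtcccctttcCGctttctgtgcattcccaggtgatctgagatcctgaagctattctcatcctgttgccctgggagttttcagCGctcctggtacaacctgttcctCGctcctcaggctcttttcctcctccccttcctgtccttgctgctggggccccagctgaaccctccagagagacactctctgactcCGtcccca
Kcnd2: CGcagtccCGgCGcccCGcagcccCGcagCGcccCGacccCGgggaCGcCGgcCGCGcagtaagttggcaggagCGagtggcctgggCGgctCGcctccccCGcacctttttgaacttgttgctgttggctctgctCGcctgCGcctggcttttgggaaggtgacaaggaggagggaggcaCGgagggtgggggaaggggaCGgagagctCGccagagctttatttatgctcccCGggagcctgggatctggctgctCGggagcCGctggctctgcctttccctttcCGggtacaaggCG
Kcng4: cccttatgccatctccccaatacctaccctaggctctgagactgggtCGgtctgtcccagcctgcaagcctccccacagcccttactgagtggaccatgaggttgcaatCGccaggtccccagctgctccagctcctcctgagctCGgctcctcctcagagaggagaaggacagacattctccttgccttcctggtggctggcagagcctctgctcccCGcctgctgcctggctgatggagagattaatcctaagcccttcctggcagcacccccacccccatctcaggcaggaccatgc
Kcnmb4: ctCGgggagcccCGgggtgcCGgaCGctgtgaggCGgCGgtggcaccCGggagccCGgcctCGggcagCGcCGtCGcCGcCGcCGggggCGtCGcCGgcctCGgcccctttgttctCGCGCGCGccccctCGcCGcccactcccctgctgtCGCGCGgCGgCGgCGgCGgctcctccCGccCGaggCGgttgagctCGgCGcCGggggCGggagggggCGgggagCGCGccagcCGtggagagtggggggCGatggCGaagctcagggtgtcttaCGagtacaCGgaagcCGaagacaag
The Kcna5 window held 4 CG dinucleotides, as did the Kcng4 window, while that of Kcnd2 held 26 and that of Kcnmb4 held 48. The striatal patterns of Kcna5 and Kcnd2 thus went with windows of unlike composition. Over the 64 genes found in the table, with 89 windows, the median was 9 CG dinucleotides against 7 over all 32851 windows of 27025 genes, and the median G+C content was 58% against 52.7%. Windows of genes highest in cortex had a median of 18 CG dinucleotides (18 windows), those of genes highest in striatum 10 (13 windows) and those highest in midbrain 9 (18 windows). Searched on both strands, the EGR motif GCGNGGGCG lay in 3.37% of the windows of these genes against 5.55% of all windows, CCAAT in 31.5% against 37.4%, and TATAAA in 5.62% against 13.6%. A match is a description of the letters and shows no binding, and several windows of one gene share its neighbourhood.

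The first comparison asked how these genes differ between the regions without toxin. Far more of these genes differed between regions than between treatments. Against saline frontal cortex, 13 of the 61 genes were higher and 38 lower in saline striatum, and 15 were higher and 28 lower in midbrain, while midbrain against striatum had 26 higher and 25 lower (limma, adjusted p under 0.05, Benjamini-Hochberg over 11741 genes). In 3 of the genes called for striatum against cortex (Kcne1l, Kcng4 and Kcnk10) and 1 for midbrain against striatum (Kcnh5) both means lay below the filter value. Among all genes tested the shares called in either direction were 44.0%, 51.3% and 58.2%, against 83.6%, 70.5% and 83.6% of the potassium channel genes. By direction, 20.5% of all genes tested were higher and 23.5% lower in striatum than in cortex, 27.8% higher and 23.6% lower in midbrain than in cortex, and 33.4% higher and 24.8% lower in midbrain than in striatum. The genes lower in striatum than in cortex were 62.3% of the 61. The median difference of striatum minus cortex was -0.48 over the 61 genes and -0.00 over all genes tested, and that of midbrain minus cortex was -0.21 against 0.02. In pieces of whole tissue fewer cells of a type and less RNA per cell cannot be told apart.

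**Figure D1:**
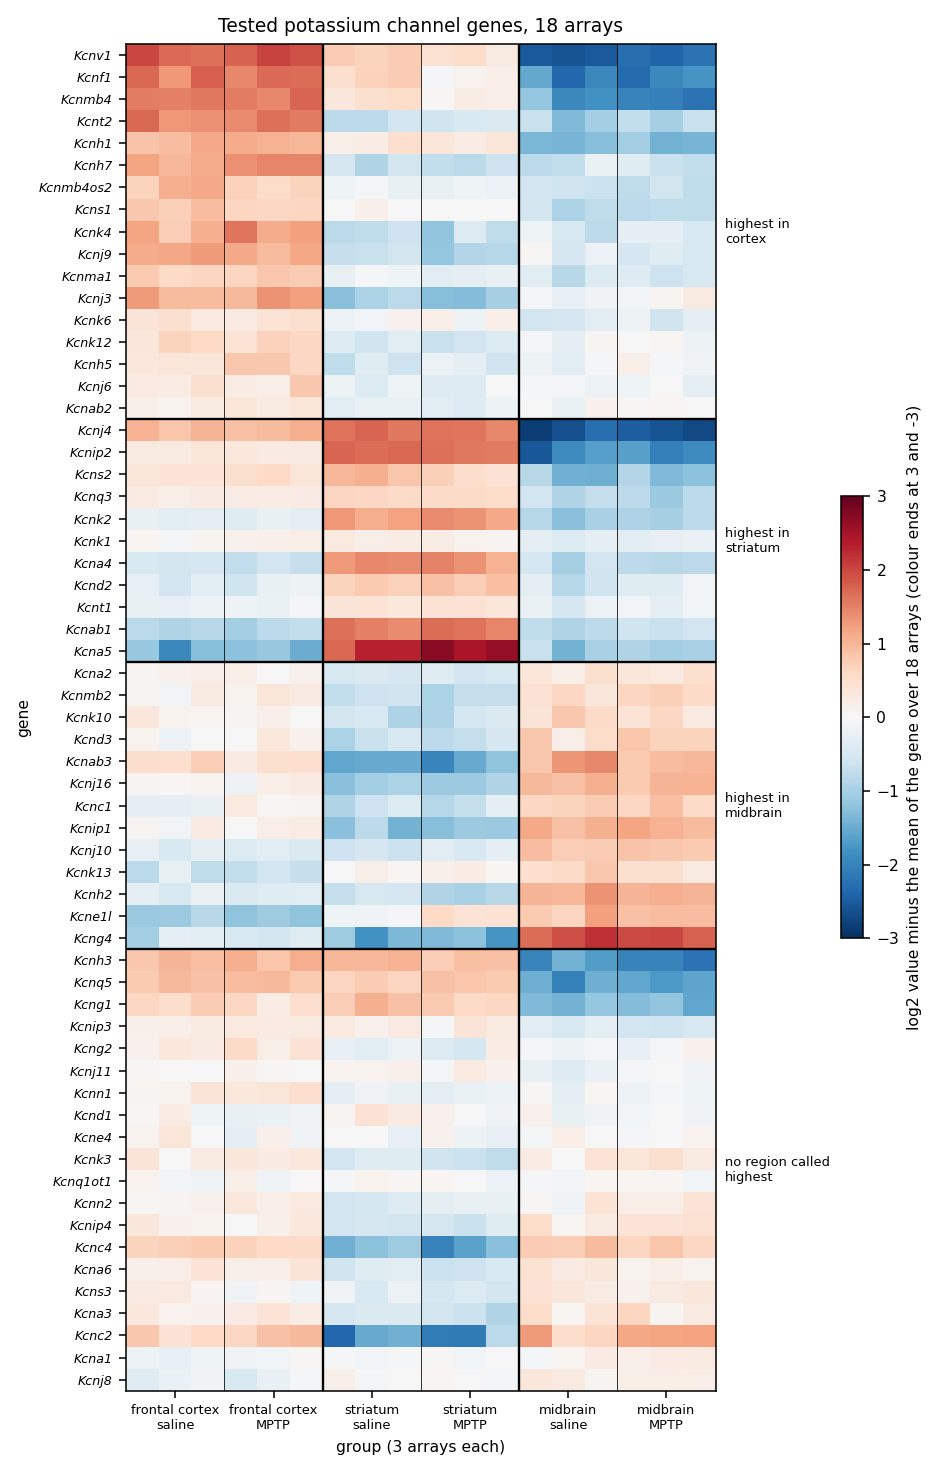
Each row is 1 of the 61 tested potassium channel genes and each column 1 of the 18 arrays (3 per group), coloured by the log2 value minus the mean of that gene over the 18 arrays, with colours ending at 3 and -3. Rows are grouped by the region in which the gene was called highest on the saline arrays (17 in cortex, 11 in striatum, 13 in midbrain, 20 in none), and the steps between regions are larger than those between saline and MPTP.

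Taking both differences of a region together, 17 genes were called highest in saline frontal cortex (27.9%, against 10.4% of all genes tested), 11 highest in striatum (18% against 11.7%) and 13 highest in midbrain (21.3% against 20.3%). The share for midbrain is thus near that of all genes. Called lowest were 24 genes in striatum (39.3% against 14.2%), 19 in midbrain (31.1% against 14.5%) and 2 in cortex, Kcne1l and Kcnk13 (3.28% against 8.83%).

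The 11 genes highest in striatum included 2 Kv1 subunits, Kcna5 and Kcna4, the Kv4 subunit Kcnd2 and proteins that bind such channels. The Kv1 family did not move as one: of its 6 tested members 2 were higher and 3 lower in striatum than in cortex. Kcna5, a Kv1 subunit, read 7.34, 7.97 and 7.94 on the saline arrays of striatum, 4.49, 3.69 and 4.34 in cortex and 4.95, 4.22 and 4.66 in midbrain. Every striatal array thus lay above every other one, and the cortical and midbrain arrays were all below the filter value. The difference of striatum minus cortex was 3.58 (SE 0.19, adjusted p = 2.69e-13), and against the filter value striatum was at least 5.94-fold higher than either region. Kcnab1, a Kv beta subunit that binds Kv1 channels and speeds their inactivation, read 11.55, 11.40 and 11.29 in striatum and between 8.97 and 9.11 on the 6 saline arrays of the other regions. It was 5.21-fold higher in striatum than in cortex (log2 difference 2.38, SE 0.08) and 5.1-fold higher than in midbrain, with no overlap. Kcna4, the Kv1 subunit that inactivates fast by itself, read 8.40, 8.58 and 8.55 in striatum and was 3.67-fold higher than in cortex and 4.24-fold higher than in midbrain. The other regions were close to each other, with midbrain minus cortex at 0.03 for Kcnab1 (SE 0.08, adjusted p = 0.786) and -0.21 for Kcna4 (SE 0.12, adjusted p = 0.147). Kcna3 and Kcna6 were lowest in striatum. Kcna3 read 5.52, 5.60 and 5.59 there, 6.35, 6.14 and 6.16 in cortex and 6.59, 6.08 and 6.43 in midbrain, and Kcna6 was 1.61-fold lower in striatum than in cortex.

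Kcnd2, a Kv4 pore subunit of the dendritic A-type current, read 10.26, 10.39 and 10.29 in saline striatum, 9.35, 9.03 and 9.29 in cortex and 9.30, 8.74 and 9.00 in midbrain. It was 2.13-fold higher in striatum than in cortex and 2.46-fold higher than in midbrain, while midbrain minus cortex was -0.21 (SE 0.12, adjusted p = 0.162). Its paralogue Kcnd3 had the reverse order, with striatum below cortex by 0.67 and midbrain above cortex by 0.55, and its striatal arrays read 7.79, 8.07 and 8.26 against 9.55, 8.94 and 9.29 in midbrain. Kcnip2, a KChIP that binds Kv4 channels, read 11.16, 11.09 and 11.14 in striatum, 9.69, 9.69 and 9.77 in cortex and 6.86, 7.54 and 7.77 in midbrain. It was thus graded over the 3 regions, 2.65-fold higher in striatum than in cortex and 13.3-fold higher in striatum than in midbrain. Kcnip1 ran the other way, at 6.20, 6.66 and 6.04 in striatum and 8.59, 8.32 and 8.52 in midbrain, a 4.52-fold excess of midbrain, and Kcnip4 was 1.67-fold lower in striatum than in cortex. Of the 4 KChIPs tested 1 was higher and 2 were lower in striatum than in cortex.

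Outside the Kv channels, Kcnk2, a mechanosensitive K2P leak channel, read 10.43, 10.21 and 10.34 in striatum and was 2.79-fold higher than in cortex and 4.68-fold higher than in midbrain. Kcnj4, a classical inward rectifier, read 9.23, 9.35 and 9.18 in striatum, 8.64, 8.43 and 8.61 in cortex and 4.76, 4.96 and 5.33 in midbrain. It set the forebrain apart, with striatum 1.61-fold above cortex and, since the midbrain mean of 5.01 lay below the filter value, at least 16.8-fold above midbrain. Kcnt1, a sodium-activated channel, was 1.49-fold higher in striatum than in cortex, and Kcnq3, an M-current subunit, 1.3-fold. Also called highest in striatum were Kcnk1 and the silent subunit Kcns2. The 8 tested markers of striatal spiny neurons had a mean between 11.25 and 11.35 on the saline arrays of striatum, between 6.38 and 6.99 in cortex, where 2 of them stayed below the filter value, and between 6.71 and 6.88 in midbrain. Their part in these differences was not tested.

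**Figure D2:**
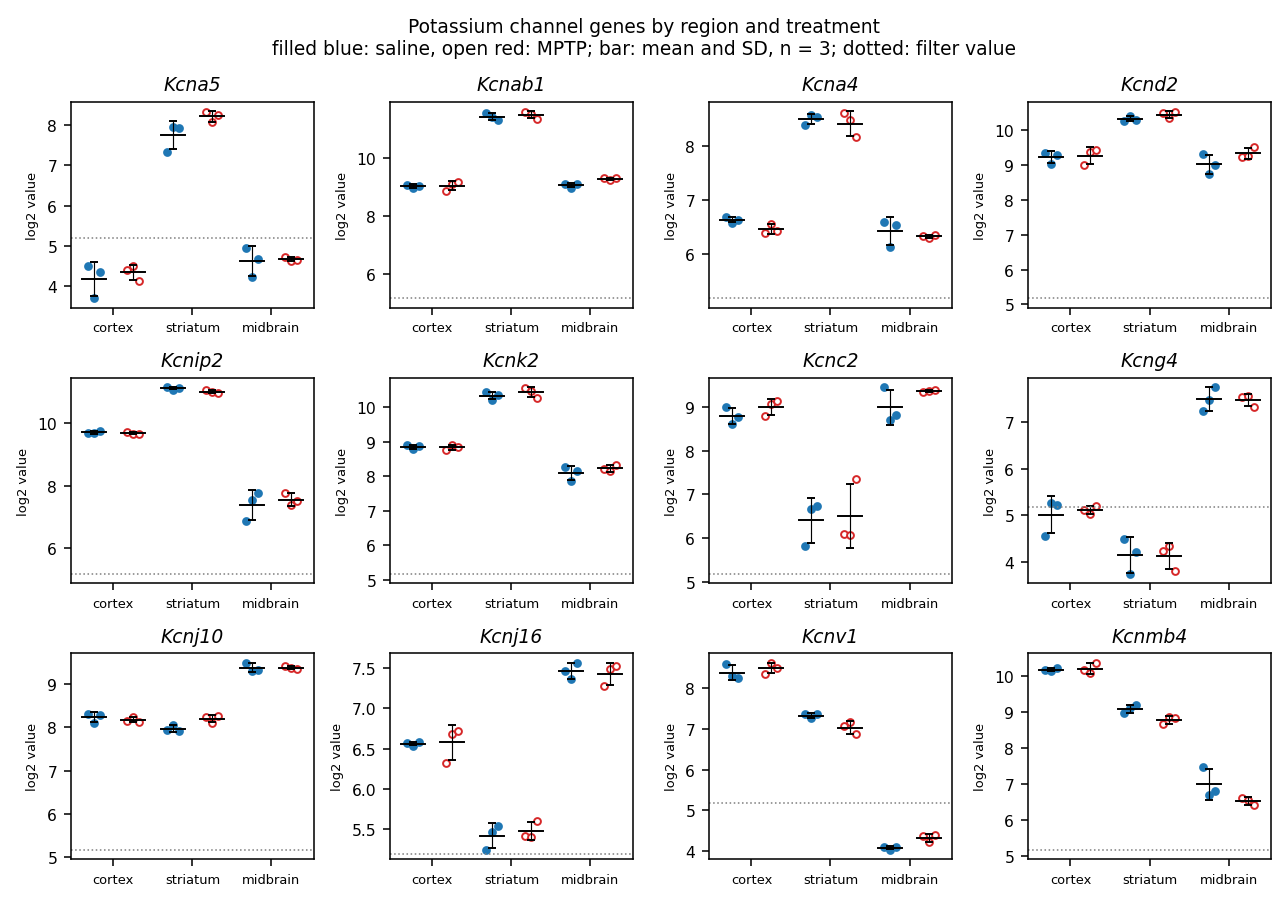
Log2 values of 12 potassium channel genes on each array by region and treatment (filled blue, saline, and open red, MPTP), with the mean and SD of each group of 3 and the filter value of 5.18 as a dotted line where it falls on the axis. Kcna5, Kcnab1, Kcna4, Kcnd2, Kcnip2 and Kcnk2 peak in striatum, Kcnc2 is lowest there, Kcng4, Kcnj10 and Kcnj16 peak in midbrain, and Kcnv1 and Kcnmb4 step down from cortex to midbrain.

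Genes highest in cortex included Kcnv1, Kcnf1 and Kcns1, 3 of the 8 tested electrically silent Kv subunits, which form no channel alone and modify Kcnb channels. Kcnv1 read 8.61, 8.31 and 8.25 in saline cortex, 7.36, 7.27 and 7.37 in striatum and 4.09, 4.02 and 4.09 in midbrain. The arrays of the 3 regions did not overlap, and cortex was at least 9.27-fold higher than midbrain against the filter value (log2 difference of midbrain minus cortex -4.32, SE 0.11). Kcnf1 read 9.14, 8.72 and 9.21 in cortex, 7.89, 8.11 and 8.17 in striatum and 5.87, 5.05 and 5.48 in midbrain, an 11.8-fold excess of cortex over midbrain. Of the 8 silent subunits tested 6 were lower in striatum than in cortex and 1, Kcns2, was higher. The exception in midbrain was Kcng4, which read 7.24, 7.48 and 7.76 there, 4.55, 5.27 and 5.23 in cortex and 4.48, 3.73 and 4.21 in striatum. Both forebrain means lay below the filter value, against which midbrain was at least 4.99-fold higher than either region (log2 difference of midbrain minus cortex 2.48, SE 0.19), whereas Kcng1 was at least 2.45-fold lower in midbrain than in cortex.

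Of the 4 tested entries for calcium-activated BK channels 3 were highest in cortex. Kcnmb4, the neuronal beta subunit that slows BK gating, read 10.14, 10.13 and 10.21 in saline cortex, 8.96, 9.09 and 9.18 in striatum and 7.47, 6.69 and 6.80 in midbrain. It was 9.04-fold higher in cortex than in midbrain, with no overlap between any 2 regions. The pore gene Kcnma1 had the same order with a smaller span, at 9.91, 9.72 and 9.77 in cortex, 8.88, 9.06 and 9.00 in striatum and 8.79, 8.28 and 8.70 in midbrain. Kcnmb4os2 lies on the opposite strand and its gene model overlaps that of Kcnmb4 by 697 bases, and the array does not tell how far their probe sets are independent. It read 6.16, 6.58 and 6.62 in cortex and between 4.84 and 5.44 on the other saline arrays. The fourth entry, Kcnmb2, was lower in striatum than in cortex like the others but highest in midbrain.

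Among the EAG, ERG and ELK subunits, a voltage-gated branch named after a fly mutant, 4 of 5 tested were lower in striatum than in cortex. Kcnh7 read 7.00, 6.83 and 6.93 in cortex and between 4.91 and 5.62 on the other saline arrays. Kcnh3 was not called between striatum and cortex, at 8.90, 8.90 and 8.93 against 8.70, 8.93 and 8.79, and read 5.93, 6.48 and 6.23 in midbrain, 6.05-fold below cortex. The ERG gene Kcnh2 opposed these, at 8.83, 8.83 and 9.16 in midbrain against 7.55, 7.34 and 7.62 in cortex, a 2.71-fold excess. Kcnq5, an M-current subunit, was 5.8-fold lower in midbrain than in cortex, and Kcnt2, the other sodium-activated channel, was at least 1.84-fold lower in both striatum and midbrain than in cortex. Kcnt2 read 6.32, 5.90 and 5.96 in cortex and 4.01 or less on all other saline arrays.

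The GIRK subunits, through which dopamine and GABA-B receptors hyperpolarise neurons, were called highest in cortex in all 3 cases tested. Kcnj3 read 8.78, 8.44 and 8.44 in saline cortex, 6.24, 6.55 and 6.69 in striatum and 7.45, 7.26 and 7.40 in midbrain. Kcnj9 read 8.56, 8.60 and 8.71 in cortex, 6.75, 6.76 and 6.89 in striatum and 7.47, 6.93 and 7.26 in midbrain. Cortex exceeded striatum 4.16-fold for Kcnj3 and 3.53-fold for Kcnj9, and midbrain lay between the other regions for both, with no overlap. Kcnj6, the GIRK subunit known for its place in substantia nigra dopaminergic neurons, was dim: it read 5.36, 5.32 and 5.59 in cortex, 4.96, 4.69 and 4.98 in striatum and 5.04, 5.06 and 4.92 in midbrain. All its striatal and midbrain arrays lay below the filter value, as did the region means of its other probe sets (3.94, 4.24, 3.86 and 4.33 at the highest), so that these data order midbrain and striatum neither way for it. The markers of dopaminergic neurons had a mean of 9.01 to 9.39 in saline midbrain and 6.31 to 6.49 in striatum. The adjusted p of its difference between midbrain and cortex, 0.0283, passed the threshold but was 0.125 without saline cortex array 3 and 0.087 without saline midbrain array 3.

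The 3 tested Kv3 subunits, which let fast-spiking neurons repolarise quickly, were called lowest in striatum by the probe sets used. Kcnc2 read 5.82, 6.67 and 6.75 in saline striatum, 9.00, 8.62 and 8.77 in cortex and 9.46, 8.70 and 8.82 in midbrain. Striatum was 5.22-fold below cortex and 6-fold below midbrain, with no overlap, while midbrain minus cortex was 0.20 (SE 0.25, adjusted p = 0.539). Kcnc4 read 6.00, 6.20 and 6.38 in striatum and between 8.11 and 8.39 on the other saline arrays. Kcnc1 read 9.87, 9.91 and 10.00 in midbrain, 8.99, 8.98 and 9.03 in cortex and 8.35, 8.63 and 8.85 in striatum. The probe sets of Kcnc1 disagreed: one of its others gave -1.11 for midbrain minus cortex where the one used gave 0.93, so that no direction is drawn for that gene between midbrain and the forebrain. Its lower value in striatum than in cortex (-0.39, adjusted p = 0.0137) lost the call without saline striatum array 1 (adjusted p = 0.120). For that difference its other probe sets gave -0.94, -0.19 and, for the dimmest, 0.15, so that Kcnc1 is the least certain of the 3. The 4 tested interneuron markers averaged 10.12 to 10.24 in saline cortex, 8.70 to 9.10 in striatum and 9.23 to 9.61 in midbrain. They did not move as one: Gad1 was called higher and Pvalb and Vip lower in striatum than in cortex. In midbrain Gad1 and Pvalb were higher and Sst and Vip lower than in cortex. Against striatum, midbrain had Pvalb and Vip higher and Gad1 and Sst lower. The part of interneurons was not tested. Kcns3, a silent subunit of fast-spiking cells, was 1.38-fold lower in striatum than in cortex.

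Kcnab3, a Kv beta subunit, read 8.16, 8.69 and 8.80 in saline midbrain, 7.88, 7.87 and 8.10 in cortex and 5.81, 5.84 and 5.86 in striatum. Midbrain exceeded striatum 6.56-fold, the reverse of Kcnab1. Among the inward rectifiers of astrocytes, Kcnj10 read 9.50, 9.30 and 9.32 in midbrain, 8.31, 8.11 and 8.29 in cortex and 7.95, 8.06 and 7.91 in striatum, and its partner Kcnj16 read 7.47, 7.37 and 7.56, then 6.57, 6.54 and 6.58, then 5.24, 5.46 and 5.54 in the same order. Midbrain exceeded cortex 2.2-fold for Kcnj10 and 1.87-fold for Kcnj16. Striatum was lower than cortex by 1.15 for Kcnj16 but only by 0.26 for Kcnj10, whose adjusted p of 0.0100 went to 0.0546 without saline cortex array 1 and to 0.0502 without saline striatum array 3. The 9 tested astrocyte markers averaged 10.36 to 10.58 in saline midbrain, 9.92 to 9.96 in cortex and 9.61 to 9.78 in striatum. Against each of the other regions 7 of them were called higher in midbrain and 2, Slc1a2 and Slc1a3, lower. Only 2 were called lower in striatum than in cortex, and none higher. The part of astrocytes was not tested. Kcnk13, a K2P channel found in microglia, read 6.37, 6.44 and 6.69 in midbrain, 5.89, 6.04 and 5.92 in striatum and 5.06, 5.64 and 5.10 in cortex. The 8 tested microglia markers had another order and were lowest in midbrain. They averaged 7.70 to 7.96 in saline midbrain, 8.25 to 8.35 in striatum and 7.99 to 8.10 in cortex, and their part was not tested.

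The axonal Kv1 subunits had smaller differences. Kcna1 read between 10.49 and 10.97 on all 9 saline arrays, and midbrain exceeded cortex by 0.27 (adjusted p = 0.00174), while striatum minus cortex was 0.12 (adjusted p = 0.150). Kcna2 was lower in striatum than in cortex by 0.62, and its excess of 0.19 in midbrain over cortex, with an adjusted p of 0.0496, was lost without any of 4 arrays (saline cortex 1 and 2, saline midbrain 1 and 3), where the adjusted p reached 0.256. Kcnj8, the ATP-sensitive channel of mural cells, read between 5.58 and 6.29 in the saline arrays and was 1.38-fold higher in midbrain than in cortex. Kcnq1ot1 was called between no 2 regions, with 8.67, 8.49 and 8.47 in cortex, 8.54, 8.68 and 8.61 in striatum and 8.53, 8.50 and 8.63 in midbrain.

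Of the 22 genes that were not tested, none reached 5.18 as the mean of a region over both treatments. They included Kcnj5 (3.65 in saline cortex, 3.86 in striatum, 3.89 in midbrain), Kcnj2 (3.57, 3.81 and 3.34), the choroid plexus genes Kcnj13 (4.72, 3.77 and 4.67) and Kcne2 (3.25, 3.48 and 3.33), and Kcnn3, the SK channel of dopaminergic neurons, which read 4.54, 4.95 and 4.90 in saline cortex, 5.64, 5.11 and 4.89 in striatum and 4.65, 4.66 and 4.82 in midbrain. The others were Kcna7, Kcne1, Kcne3, Kcnh8, Kcnj1, Kcnj12, Kcnj14, Kcnj15, Kcnk5, Kcnk7, Kcnk15, Kcnk16, Kcnmb1, Kcnmb4os1, Kcnn4, Kcnq1 and Kcnv2. A value below the filter does not show that a channel is absent, and 46 of the 83 genes had more than 1 probe set.

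The regional differences were then read on the MPTP arrays, which share no array with the saline ones. The fit gives both the same estimate of the spread per gene, so the calls are not fully independent. Of the 51 genes called between saline striatum and cortex 47 were called in the same direction with MPTP (92.2%, against 84.1% of all genes called with saline). For midbrain against cortex 41 of 43 were called again (95.3% against 87.4%), and for midbrain against striatum 47 of 51 (92.2% against 86.7%). Kcnj10, Kcnk1, Kcnk6 and Kcns2 were the ones not called again between striatum and cortex. Of the 17 genes called highest in cortex 16 kept that place with MPTP, where 1083 of 1224 did among all genes tested. For striatum the place was kept by 9 of 11, against 987 of 1373 among all genes. For midbrain it was kept by 11 of 13, against 2054 of 2387. Whether these counts differ from those of all genes was not tested. Other probe sets of the called genes that passed the filter mostly shared the sign of the probe set used. The counts were 39 of 40 for striatum minus cortex and 34 of 35 for midbrain minus cortex. For midbrain minus striatum 43 of 45 did, and each exception in these differences was a probe set of Kcnc1. Among those below the filter 13, 15 and 14 of 17 shared the sign, in the same order. The exceptions there, none with an unadjusted limma p under 0.05, belonged to Kcna2, Kcnd2, Kcnj9, Kcnip1 and Kcnk13.

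**Figure D3:**
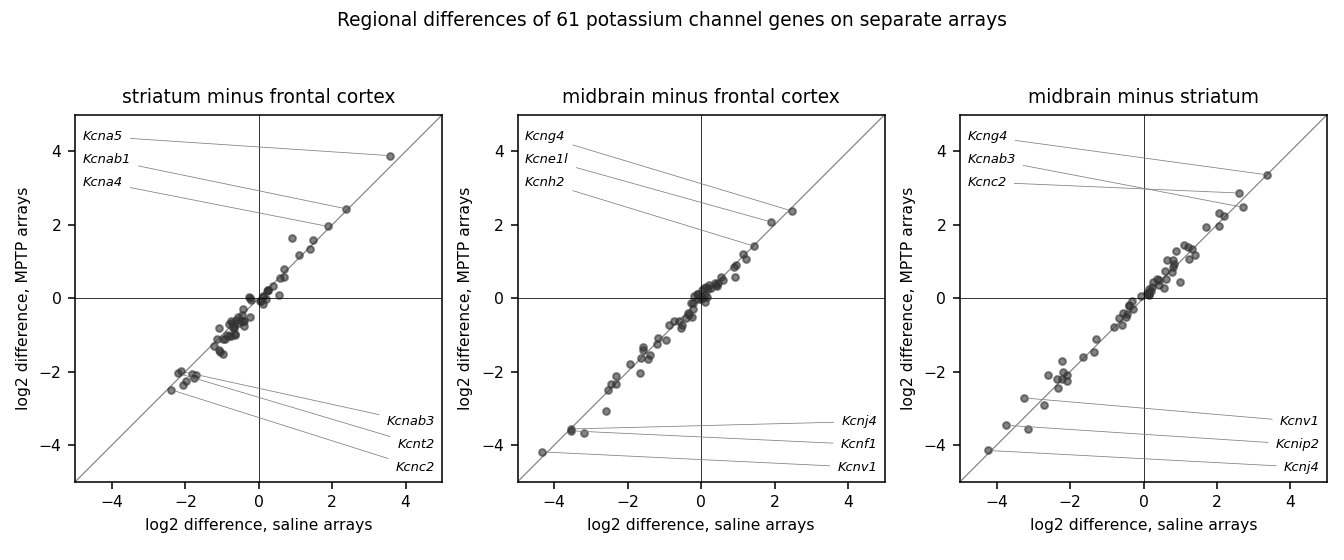
Each point is 1 of 61 potassium channel genes, placed by its log2 difference between 2 regions on the saline arrays (x axis) and on the MPTP arrays (y axis), with the line of equality and the 3 most negative and most positive genes named. The points lie close to the line in all 3 panels, from Kcna5 at 3.58 to Kcnc2 at -2.38 for striatum minus cortex.

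The next comparison asked which of these genes differed between MPTP and saline within a region. In striatum 1 of 61 genes was called, Kcne1l, which rose. Of all genes tested 2.1% were called there and 1.29% were called higher. In frontal cortex and in midbrain none was called, where 0.0681% and 2.54% of all genes were. Without adjustment, 5, 11 and 8 genes in cortex, striatum and midbrain had a limma p under 0.05, or 8.2%, 18% and 13.1% of the 61, against 6.13%, 16.3% and 16.6% of all genes tested. MPTP and saline arrays did not overlap for 9 genes in cortex (14.8%, against 13.3% of all genes), 16 in striatum (26.2% against 23.2%) and 8 in midbrain (13.1% against 16.3%). These shares are near the background, and the median difference of the 61 genes, 0.04, -0.03 and 0.03 in cortex, striatum and midbrain, was that of all genes to 2 decimals. The 95% interval of the difference lay within 0.5 of 0 for 52, 48 and 53 of the 61 genes, so that larger changes were outside the interval for most of them.

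**Figure D4:**
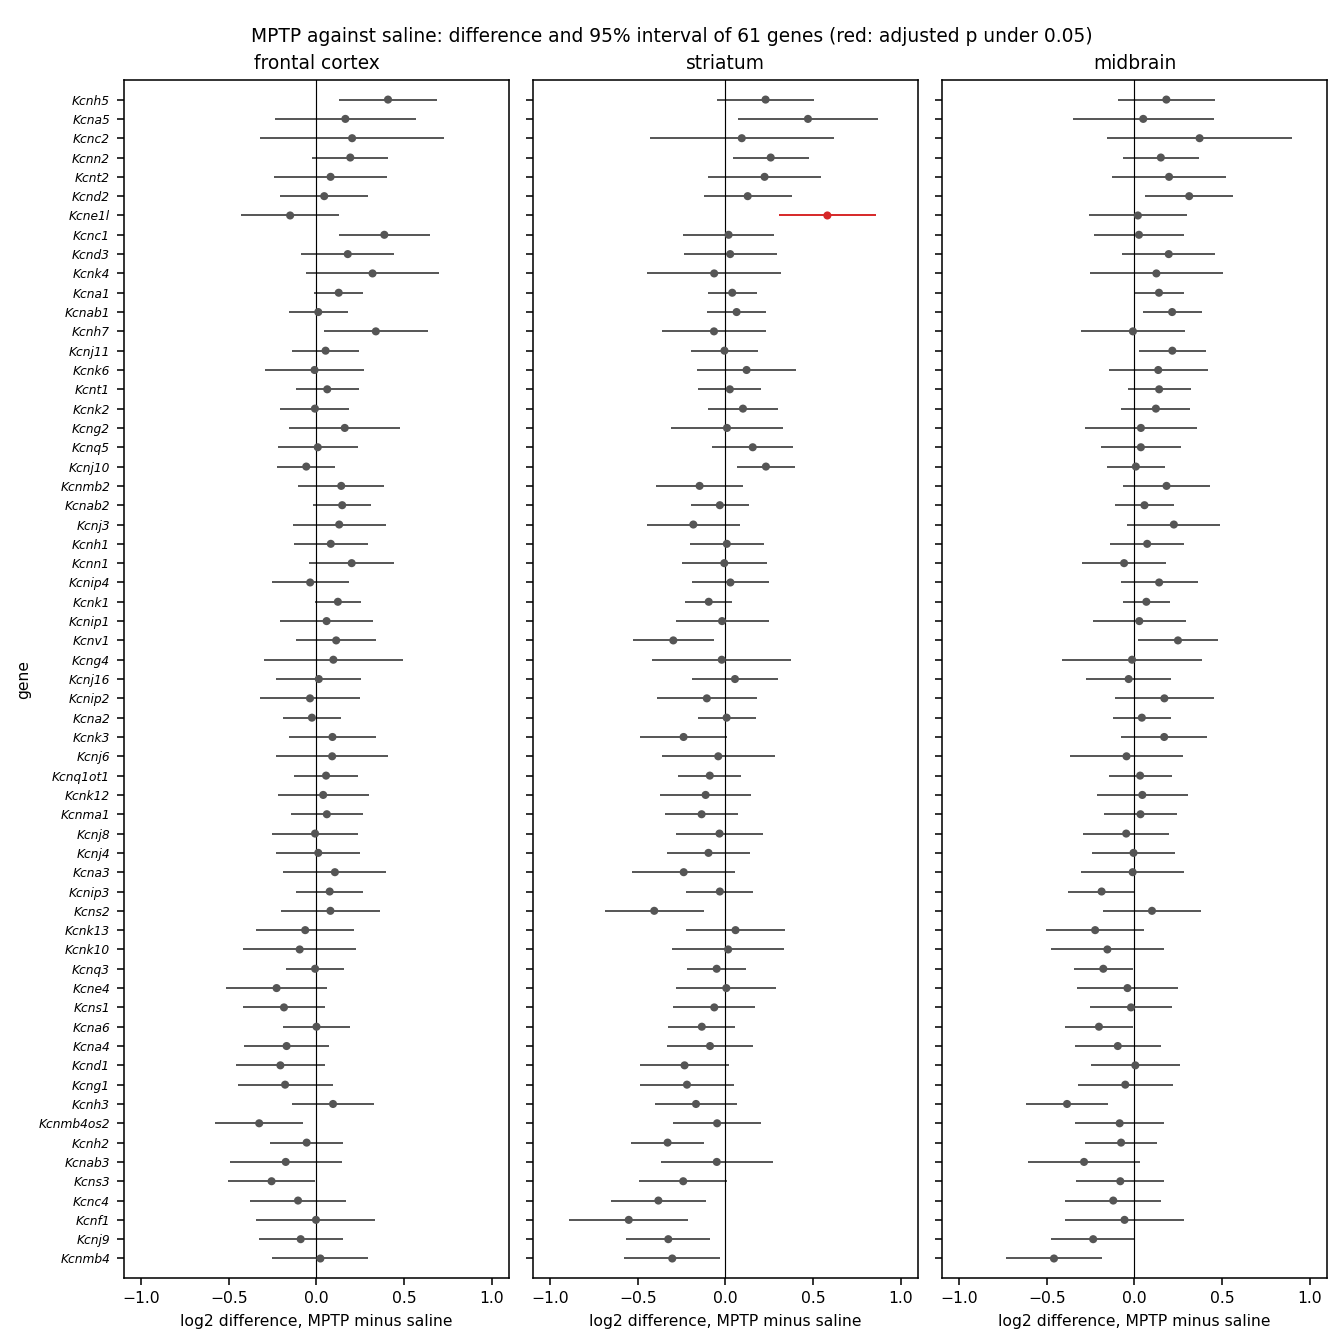
Log2 difference of MPTP minus saline for each of the 61 tested genes (points) with its unadjusted 95% interval (lines), in frontal cortex, striatum and midbrain, ordered by the mean over the regions. The 1 gene in red, Kcne1l in striatum at 0.58, had an adjusted p under 0.05.

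Kcne1l, an accessory subunit of the Kcne family also known as Kcne5 and able to modulate Kv channels, read 5.00, 5.02 and 5.07 in saline striatum and 5.73, 5.55 and 5.56 in MPTP striatum. The groups did not overlap, but the saline arrays all lay below the filter value, and the gene has a single probe set. The difference was 0.58 (SE 0.13, adjusted p = 0.0240), and against the filter value MPTP striatum was at least 1.35-fold higher. Leaving out 1 array kept the difference between 0.52 and 0.61, but the adjusted p exceeded 0.05 in 4 of 6 cases: 0.0716, 0.0822 and 0.0639 without saline striatum array 1, 2 or 3, and 0.108 without MPTP striatum array 1, the array that stood apart. In cortex and midbrain MPTP minus saline was -0.15 and 0.02 for the same gene.

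The genes next in order of p in striatum were below the saline level, except Kcnj10. Kcnf1 read 7.89, 8.11 and 8.17 with saline and 7.38, 7.53 and 7.60 with MPTP, a difference of -0.55 (SE 0.16, adjusted p = 0.0806). Its other probe set gave -0.61. Kcnh2 read 7.10, 7.35 and 7.31 against 6.92, 6.85 and 7.00 (-0.33, adjusted p = 0.0866), and Kcns2 8.69, 8.77 and 8.53 against 8.40, 8.23 and 8.13 (-0.41, adjusted p = 0.120). The arrays of these 3 genes did not overlap, yet none passed the threshold. Kcnc4 differed by -0.38 (adjusted p = 0.130), of which only -0.20 was left without MPTP striatum array 1, and without MPTP striatum array 3 it was called at -0.57 (adjusted p = 0.0222). Kcnj10 read 7.95, 8.06 and 7.91 with saline and 8.23, 8.11 and 8.27 with MPTP (0.23, adjusted p = 0.133). Kcna5 read 8.33, 8.08 and 8.26 with MPTP, all above the saline arrays (0.47, adjusted p = 0.216).

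Cell type markers moved in the same arrays. In MPTP striatum 4 of 9 astrocyte, 5 of 8 oligodendrocyte and 6 of 8 microglia markers were called higher, and their means lay between 9.91 and 10.19, 10.68 and 10.78, and 8.58 and 8.92, against 9.61 to 9.78, 10.35 to 10.43, and 8.25 to 8.35 with saline. All 7 tested markers of cortical glutamatergic neurons had differences below 0, with a mean of 5.64 to 6.90 against 6.73 to 7.25, and none was called. None of the 8 spiny neuron markers was called. No glial marker tested stayed below the filter value on all striatal arrays, whereas 1 of the cortical markers did so with saline and 2 with MPTP. The part of these cells in the values of Kcne1l, Kcnf1, Kcnj10 and the other striatal genes was not tested.

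**Figure D5:**
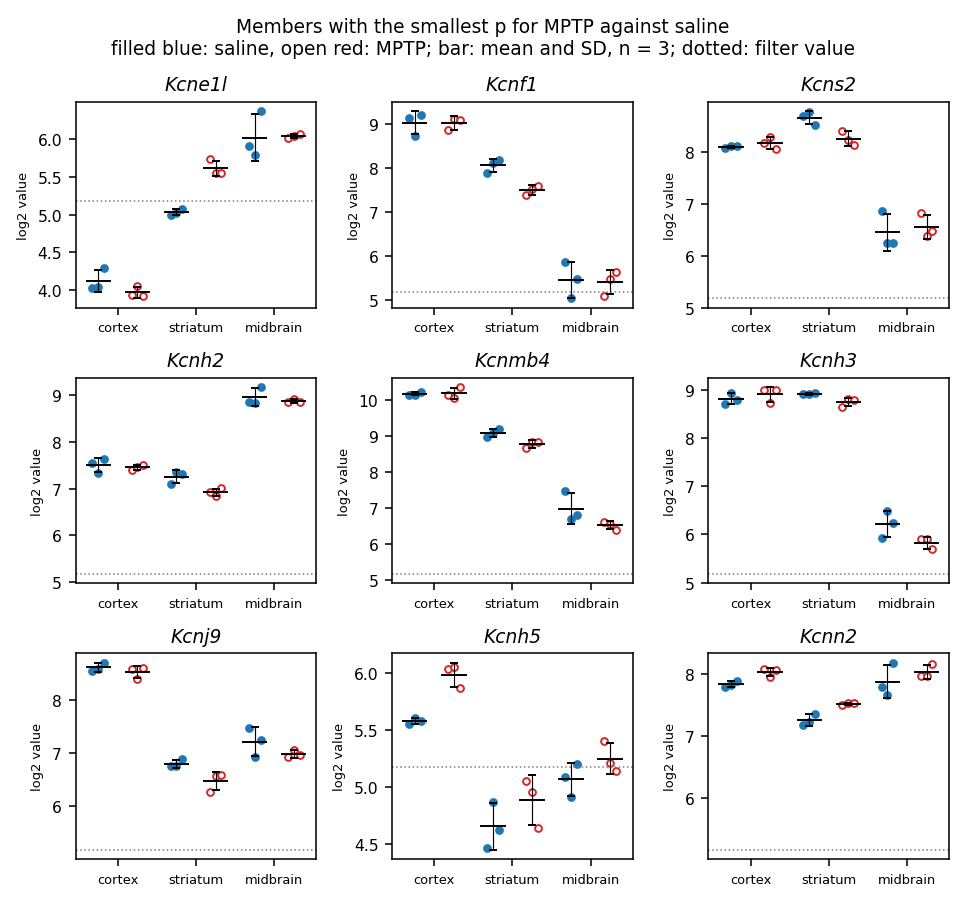
Log2 values on each array of 9 potassium channel genes named for MPTP against saline (filled blue, saline, and open red, MPTP), with the mean and SD of each group of 3 and the filter value of 5.18 as a dotted line. Kcne1l separates in striatum around that line, Kcnh5 separates in cortex, and Kcnmb4 is lower with MPTP in striatum and midbrain and level in cortex.

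In midbrain Kcnmb4 came first, at 7.47, 6.69 and 6.80 with saline and 6.62, 6.56 and 6.41 with MPTP. All MPTP arrays were lower, but saline array 1 alone was far above the rest, and the difference was -0.46 (SE 0.13, adjusted p = 0.0641). Without that array it was -0.22, and without saline midbrain array 2 it was called at -0.61 (adjusted p = 0.0294). Kcnh3 read 5.93, 6.48 and 6.23 with saline and 5.90, 5.89 and 5.69 with MPTP (-0.39, adjusted p = 0.0673), and without saline midbrain array 1 it was called at -0.53, together with Kcnd2 at 0.45 and Kcnab3 at -0.48. Kcnab1 and Kcnd2, both highest in striatum, read 0.21 and 0.31 higher in MPTP midbrain (adjusted p = 0.166 and 0.177). The genes linked to dopaminergic neurons were not called: MPTP minus saline was -0.05 for Kcnj6 (95% interval -0.37 to 0.28, all arrays below the filter value), 0.20 for Kcnd3 (-0.07 to 0.46) and 0.22 for Kcnj11, the pore of the neuronal ATP-sensitive channel (0.03 to 0.41, adjusted p = 0.226). None of the 6 tested dopaminergic markers was called in midbrain, though 5 had differences below 0 and 1 above. Their mean there was 9.01 to 9.39 with saline and 8.82 to 9.02 with MPTP. Among them Th read 8.64 to 8.97 with saline and 7.94 to 8.09 with MPTP in midbrain, with no overlap. The fit takes the spread of a gene over all groups. The SD of Th was 0.97 in saline cortex, but 0.18 in saline midbrain and 0.08 in MPTP midbrain. The missing call thus does not show that Th was unchanged. Kcnv1 read 0.25 higher (adjusted p = 0.256), with all its midbrain arrays below the filter value. With the mean over all probe sets of a gene in place of the brightest one, the values for Kcnd2, Kcnj11 and Kcnv1 were -0.04, -0.02 and -0.02, so that no direction is drawn for them in midbrain.

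In frontal cortex Kcnc1 read 8.99, 8.98 and 9.03 with saline and 9.54, 9.29 and 9.33 with MPTP (0.39, SE 0.12, unadjusted p = 0.00498, adjusted p = 0.505). Its other probe sets gave 0.10, 0.03 and -0.11. Kcnh5, an EAG subunit, read 5.55, 5.60 and 5.58 against 6.04, 6.05 and 5.87 (0.41, adjusted p = 0.532), and Kcnh7 7.00, 6.83 and 6.93 against 7.20, 7.29 and 7.29 (0.34, adjusted p = 0.774). Kcnmb4os2 differed by -0.33, Kcns3 by -0.26 and Kcnk1 by 0.12, none past the threshold.

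Averaged over the 3 regions, with arrays of one treatment and replicate number as a random block, 4 of 61 genes were called (6.56%, against 9.04% of all genes tested), and 13 had an unadjusted p under 0.05 (21.3% against 24.3%). Kcnh5 and Kcnn2 rose and Kcnj9 and Kcnmb4 fell, where 6.61% of all genes tested rose and 2.43% fell. Kcnh5 differed by 0.41 in cortex, 0.23 in striatum and 0.18 in midbrain, with a mean of 0.27 (SE 0.08, adjusted p = 0.0298), with all its striatal arrays below the filter value, where the groups have no order, and cortex alone above it on every array. Kcnn2, an SK channel of the afterhyperpolarisation, read 7.79, 7.83 and 7.89 with saline and 8.08, 7.96 and 8.06 with MPTP in cortex, 7.18, 7.23 and 7.36 and then 7.49, 7.53 and 7.53 in striatum, and 7.79, 7.66 and 8.18 and then 7.96, 7.96 and 8.16 in midbrain. The groups separated in cortex and striatum and overlapped in midbrain, and the mean difference was 0.20 (SE 0.06, adjusted p = 0.0389). Kcnj9 differed by -0.09, -0.33 and -0.24 in cortex, striatum and midbrain, with a mean of -0.22 (SE 0.07, adjusted p = 0.0441). Of its other probe sets those above the filter gave -0.37 and -0.25, and the dim one 0.13. Kcnmb4 differed by 0.02, -0.30 and -0.46, with a mean of -0.25 (SE 0.08, adjusted p = 0.0456).

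These 4 calls lay near the threshold. Of 18 fits that left out 1 array each, 12 kept the call of Kcnh5, 8 that of Kcnn2, 7 that of Kcnmb4 and 6 that of Kcnj9, and no sign changed. The difference stayed between 0.24 and 0.31 for Kcnh5, 0.16 and 0.25 for Kcnn2, -0.30 and -0.17 for Kcnmb4, and -0.27 and -0.18 for Kcnj9. None of the 61 genes was called without MPTP cortex array 1 or 2, MPTP striatum array 1 or saline striatum array 1, and 1 was without saline striatum array 2 or 3 or MPTP midbrain array 3. The count was 2 without saline cortex array 3, MPTP cortex array 3 or MPTP midbrain array 1, and 6 without saline midbrain array 2. Without saline midbrain array 1 the mean for Kcnmb4 was -0.17.

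Whether the response to MPTP differed between regions was tested on the difference of the differences. None of the 61 genes was called for striatum minus cortex, midbrain minus cortex or midbrain minus striatum, where 0.0596%, 0.0% and 0.0681% of all genes tested were. In the same order 7, 2 and 6 had an unadjusted limma p under 0.05. These were 11.5%, 3.28% and 9.84% of the 61, against 7.75%, 4.97% and 5.89% of all genes. The smallest p values belonged to Kcne1l, at 0.73 for striatum minus cortex (SE 0.19, adjusted p = 0.273), Kcnh3, at -0.48 for midbrain minus cortex (SE 0.16, adjusted p = 0.738), and Kcnv1, at 0.55 for midbrain minus striatum (SE 0.16, adjusted p = 0.401). The 95% intervals of these differences were wide, with a median of 0.35 to either side.

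Genes whose products bind or regulate potassium channels were read beside them, and 21 of 24 on the array were tested. In saline tissue 8 of 21 were higher and 5 lower in striatum than in cortex, where 20.5% and 23.5% of all genes tested were. In midbrain 6 were higher and 12 lower than in cortex, where 27.8% and 23.6% of all genes were. Against striatum, midbrain had 6 higher and 9 lower, where 33.4% and 24.8% of all genes were. Dpp10, an auxiliary subunit of Kv4 channels, had a difference of striatum minus cortex of -1.86, and that of Cntn2, which gathers Kv1 channels beside the node of Ranvier, was 0.50. With MPTP, Kctd8, a GABA-B receptor subunit that tunes GIRK responses, rose in cortex (0.72, SE 0.14, adjusted p = 0.0472), and Vapa, the partner of Kcnb channels at membrane contacts, rose in midbrain (0.42, SE 0.10, adjusted p = 0.0242). Of all genes tested 0.0681% were called in cortex and 2.54% in midbrain. Averaged over the regions 4 of 21 rose, where 6.61% of all genes tested did, and none fell, where 2.43% did. The 4 were Abcc9 (0.51), Kctd8 (0.27), Cntnap2 (0.27) and Vapa (0.27). Abcc9 pairs with Kcnj8 in mural cells, and Kcnj8 itself differed by -0.03 (SE 0.07).

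Other voltage-gated channel genes gave a scale. Of 7 tested sodium channel genes none was called with MPTP in any region or on average, and of 2 tested HCN genes none was. Among 19 tested calcium channel genes Cacna1a (-0.47, adjusted p = 0.0288) and Cacnb1 (-0.43, adjusted p = 0.00899) fell in striatum, while in midbrain Cacnb1 fell (-0.37, adjusted p = 0.0204) and Cacnb4 rose (0.44, adjusted p = 0.0180). Of all genes tested 2.1% were called with MPTP in striatum and 2.54% in midbrain. In saline striatum against cortex 9 calcium channel genes were higher and 3 lower, and 4 sodium channel genes were higher and 2 lower. The potassium channel genes had 13 and 38 there, and 20.5% of all genes tested were higher and 23.5% lower.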

How the data were processed

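Total RNA of frontal cortex, striatum and midbrain was measured on Affymetrix mouse arrays, 1 per sample, and the authors deposited RMA values on a log2 scale, per the submitters' processing notes. No version of RMA is given in the sources used here, and values of 2.48 to 14.2 showed the log base. RMA brings the probe intensities of all arrays to 1 distribution before they are summarised, so that a shift of all genes would not be seen. The deposited values still differed somewhat in spread, with interquartile ranges of 3.37 to 3.65 between arrays. Of 45101 probe sets 34958 named 1 gene, 932 several and 9211 none, and symbols were updated by Entrez ID for 34754. Limma 3.58.1 in R 4.3.3 was fitted to 11741 genes with 6 group means over 18 arrays and an intensity trend in the variances. Benjamini-Hochberg adjustment was made contrast by contrast, and an adjusted p under 0.05 was called. The mean over regions had arrays of one treatment and replicate number as a random block (correlation 0.00558).

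Named were all called genes and the 6 of smallest p for MPTP, the 10 largest regional differences each way (in part as counts), the 3 of smallest p for interactions, and a list of 26 genes of known cell types. An order of levels between genes, also planned, was left out, since probe sets respond unequally. The genes and lists were chosen with earlier results of these data known. A fold against a group with all arrays below the filter value of 5.18 or with a mean below it is given as a lower limit against that value. No detection call was used. The labels call the replicates biological, and 3 arrays per group limit the precision. Arrays with the same replicate number deviated together, with every correlation over 0.1, for midbrain and cortex with saline (0.22 to 0.34, other numbers -0.27 to 0.06) and for midbrain and striatum with MPTP (0.12 to 0.18, other numbers -0.17 to 0.01). In the other region pairs not every correlation passed 0.1 (-0.23 to 0.16). Over all region pairs the range was -0.23 to 0.34 for the same number and -0.27 to 0.30 for other numbers. The labels do not say what a number marks. The procedure was tested on simulated data. Tried besides were fits unfiltered or with the filter at the 75th percentile, other normalizations and variances, probe set means, blocks and leaving out each array.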

Additional observations from a re-analysis of the deposited data

How the results depend on the processing

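Of 84 named regional differences that were called, 80 kept call and sign under every alternative run, the exceptions being Kcnc1 and Kcnj10 for striatum minus cortex and Kcna2 and Kcnj6 for midbrain minus cortex. With the replicate number as a block no named call changed, and the counts were those without it: 1 gene in MPTP striatum, 4 on average over regions, 51, 43 and 51 for the saline regions, and 47 and 49 for striatum minus cortex and midbrain minus striatum with MPTP, save that midbrain minus cortex with MPTP had 47 in place of 46. With the filter at the 75th percentile only 39 genes were tested, and 33, 28, 30 and 29 were called for striatum and midbrain minus cortex with saline and with MPTP, and 0 in MPTP striatum, where Kcne1l was not tested. A second quantile normalization gave 3 genes in MPTP striatum (Kcne1l, Kcnh2 and Kcnj10), 2 in MPTP midbrain (Kcnmb4 and Kcnq3) and 7 on average. Probe set means gave 2 in MPTP striatum (Kcne1l and Kcns2). The arrays of the groups compared alone gave 1 in MPTP cortex (Kcnc1) and 3 in MPTP striatum (Kcne1l, Kcnf1 and Kcns2). Variances without trend gave 1 on average (Kcnh5). On average over regions Kcnmb4 also lost its call with robust variances, with probe set means and without the filter, and Kcnj9 lost its call without the filter. The causes were not tested. Leaving out 1 array gave 0 calls in MPTP cortex, 0 to 2 in striatum, 0 to 3 in midbrain and 0 to 6 on average, 47 to 51, 40 to 43 and 47 to 53 for the saline regions, 47 to 48, 41 to 44 (all below the 46 of all arrays) and 47 to 49 for the MPTP regions, and 0 for the interactions. Signs turned only for uncalled values: in MPTP midbrain with probe set means, Kcnd2 (-0.0360), Kcnj11 (-0.0192) and Kcnv1 (-0.0155), and for saline midbrain minus cortex Kcnab1 (-0.00495, arrays centred on their median) and, leaving out 1 array, Kcnc2 (-0.0311 to 0.347) and Kcnip4 (-0.0380 to 0.207), both lowest without saline midbrain array 1 and highest without array 2. A background correction could not be varied on RMA values.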

Other observations

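Some probe sets that did not stand for their gene showed larger differences with MPTP than the one used. For Kcnj9, a GIRK subunit, a further 2 probe sets brighter than the filter gave -0.58 and -0.42 for MPTP minus saline in midbrain, where the one used gave -0.24, and the dim one gave 0.23. For Kcnf1, a silent Kv subunit, the other probe set gave -0.44 in midbrain, where the one used gave -0.06. These probe sets were singled out after their values were seen, and no adjusted p is given for them. Without the filter Kcnk15, a K2P gene that was not tested, had a mean difference over the regions of 0.23 (adjusted p = 0.0454), at values below the filter in every region.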
